A study of Mus musculus with 6 samples.

Results

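DNA methylation was described at 357 cytosine positions of CpG dinucleotides that lie more than 50000 bases from every protein-coding or lncRNA gene span of the mouse genome (mm10) and that had a value in all 6 libraries. They were selected by distance and by a value in all 6 libraries, among the first 390208 rows of the methylation table. They make up 0.131% of the 272327 complete positions there. The assay was reduced representation bisulfite sequencing, a method that samples CpG-rich restriction fragments and tells methylated from unmethylated cytosine. It had been applied to intestinal organoids with the Apc Min genotype. Apc Min is a truncating allele of Apc, a brake on Wnt signalling, and both groups carry it. All organoids grew in organoid medium with a low glutamine treatment. There were 3 biological replicates under control treatment and 3 under DM-aKG treatment, and the series title links the compound to α-ketoglutarate. The labels give no dose, treatment time, age or number of animals.

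Most CpGs outside regulatory elements carry methylation on both strands in mammalian cells, and gene-poor DNA is no exception. DNMT1 copies the mark after replication, and the TET enzymes, which use α-ketoglutarate as a co-substrate, oxidise it. In tumours and in long-cultured cells, gene-poor stretches are known as the places where methylation is partly lost. A level here is the percent of methylation that the authors' table gives for a position in a library, in whole numbers. The table holds no coverage, so the read depth behind a level is unknown. No level from 1 to 39 occurs in the table, so a 0 can be either a low level (under 40%) or a missing call, and was treated as no value. Rows after 390208 were left out because values there no longer sit beside their own positions in every library. The correlation of control replicates 1 and 3 across positions was 0.635 before that row and -0.00185 after it.

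Positions are counted from 1. Of 13263 table positions inside RefSeq promoter windows (GRCm38.p6, the assembly of mm10), 99.9% fell on a CG when counted from 1, and 56.3% when counted from 0. None of the 357 positions lay in such a window, and the letters around them are not shown here.

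The table holds very few rows far from genes. Sequence more than 50 kb from genes made up 23.5% of the span covered on the 13 chromosomes used (350.4 Mb), but only 592 rows (0.152%) lay there. Inside gene spans there were 441.5 rows per Mb, and outside genes up to 20 kb there were 267.5. The fall was a step. From 19 to 20 kb there were 155.9 rows per Mb, from 20 to 21 kb 8.67, from 25 to 50 kb 6.60, from 50 to 100 kb 2.92 and over 200 kb 0.919. What set this step was not tested, and no filter by distance is named in the sources used here.

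**Figure D1:**
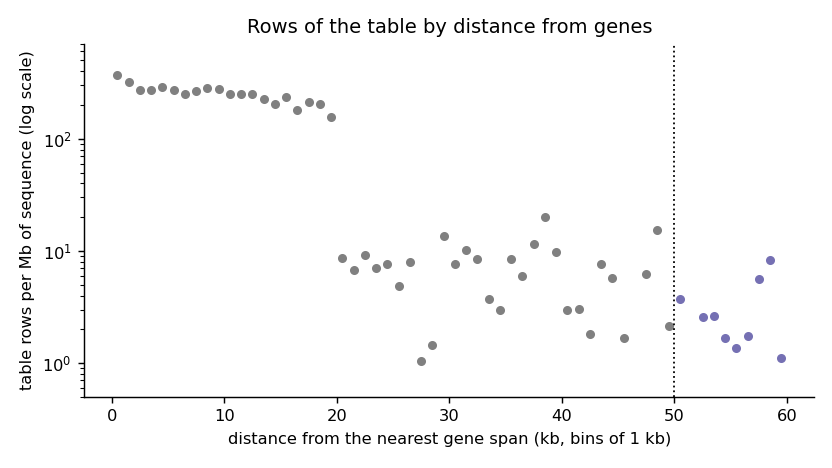
Rows of the methylation table per Mb of sequence (vertical axis, log scale) in bins of 1 kb of distance from the nearest protein-coding or lncRNA gene span (horizontal axis), with a dotted line at 50 kb and bins without rows left undrawn. The density drops from 155.9 to 8.67 rows per Mb at 20 kb.

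Most of the far rows were near annotated features of other types, such as pseudogenes and small RNA genes. Of the 592 rows, 467 (78.9%) lay within 20 kb of one, while 16.4% of the sequence over 50 kb from genes did. That is 8.14 rows per Mb near such features and 0.427 elsewhere. Of the 357 complete positions, 83 (23.2%) lay inside such a feature, 204 (57.1%) within 20 kb of one and 70 (19.6%) farther from all of them. The nearest one was a transcribed pseudogene for 180 positions, another pseudogene for 97 and a microRNA gene for 69. Another 6 lay in Igh, the immunoglobulin heavy chain locus. Only 48 positions, in 2 stretches, were more than 50 kb from every annotated feature. The name intergenic therefore holds for protein-coding and lncRNA genes and not for all transcribed or once-transcribed DNA.

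The positions were unevenly spread. They fell on 11 of the 13 chromosomes, with 74 on chromosome 15, 64 on chromosome 14, 55 on chromosome 1 and 41 on chromosome 19. Chromosomes 2 and 16 had no row over 50 kb. They occupied 33 of the 1610 gene-free stretches whose middle lies over 50 kb from genes, and 6 stretches held 188 of them (52.7%). A stretch is named here by the genes on its left and right. Glycam1 to Mucl2 on chromosome 15, between a gene for a mucin-like ligand of L-selectin and a mucin-like gene, held 48 positions from 103763623 to 103845439. Gm35023 to Lyplal1 on chromosome 1 held 43 from 185697994 to 185945987. Gm9750 to Scgb2a2, a secretoglobin gene, on chromosome 19 held 33 from 9546534 to 9569964, around the pseudogene Stxbp3-ps. Gm41225 to 4930474H20Rik on chromosome 14 held 25 at 89898961 to 89905140, in and beside the pseudogene Gm5088. Gm30608 to Tnfsf11, the gene of the osteoclast factor RANKL, on chromosome 14 held 20 within 249 bases from 78208375. Gm40856 to Gm4101 on chromosome 12 held 19 within 989 bases from 22155894, in and beside the pseudogene Gm4425.

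Within the stretches the positions sat in tight groups. Of the 357, 202 (56.6%) had another member 1 base away, in most cases the cytosine on the opposite strand of the same CpG, and 86.6% had one within 50 bases. They are thus not independent of one another. Across the 103 pairs of members 1 base apart the mean level over the 6 libraries correlated at 0.905, with a median gap of 2.67 points. In the 104925 such pairs of the other positions it correlated at 0.871. The correlation was 0.455 for 654 pairs of members 2 to 50 bases apart, 0.454 for 787 pairs 51 to 1000 bases apart and -0.000957 for 1792 pairs farther apart up to 50 kb. Pairs share libraries and often stretches, so these values are descriptions. Differences between stretches made up 38.2% of the variance of the position means.

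The genes beside the stretches were counted by kind. Of 66 flanking genes 26 (39.4%) were lncRNA genes, against 38.7% of all annotated genes, and 26 carried predicted or clone names (39.4% against 41.8%). None belonged to the listed families of developmental transcription factors (0.958% of all genes). From the list of adhesion and synaptic genes there were Flrt2, which encodes a membrane adhesion protein, and Ctnnd2, a neuronal catenin gene (3.03% against 0.774%). Vmn2r7 was the only chemosensory receptor gene (1.52% against 3.87%).

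The far positions were highly methylated, with means close to those of the other complete positions. Neither set could hold a low level, because only positions at 40% or more in every library were kept. Of the far rows 60.3% were kept, against 69.8% of the others. With each 0 counted as a level of 0, far rows minus other rows gave a mean of -4.85 points over the 6 libraries. Far positions averaged 83.2%, 86.3% and 86.7% in control replicates 1 to 3 and 87.5%, 87.4% and 89.5% in DM-aKG replicates 1 to 3. The other 271970 complete positions had 86.7%, 87.9% and 88.0%, and 88.3%, 88.5% and 88.9%. Far positions were thus lower in 5 of 6 libraries, by 0.839 to 3.46 points, and 0.631 points higher in DM-aKG replicate 3. The mean gap was -1.27 points (SD 1.32, n = 6), with an exact two-sided sign-flip permutation p of 0.0625, where 6 libraries allow 0.03125. Like the sign-flip values below, it pools control and treated libraries and concerns their agreement at the same positions. It does not measure the spread between stretches.

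The gap depended on which positions stood in the comparison. Against positions inside gene spans it was -1.60 points (SD 1.38, n = 6; exact permutation p = 0.0625). Against positions outside genes up to 20 kb it was 0.145 points (SD 1.08, n = 6; exact permutation p = 0.625). Against the 692 positions from 20 to 50 kb it was -1.17 points and negative in all 6 libraries (SD 0.816, n = 6; exact permutation p = 0.03125). Adjusted over these 4 comparisons by the Benjamini-Hochberg method, the exact sign-flip values were 0.0833, 0.0833, 0.625 and 0.0833, so none passed 0.05.

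Levels did not follow distance in 1 direction. The mean over the 6 libraries was 86.2% for the 202 positions from 50 to 100 kb, 85.3% for the 73 from 100 to 200 kb and 89.4% for the 82 over 200 kb. The classes hold few stretches each (22, 10 and 8), and the last rests mainly on Gm9750 to Scgb2a2 and Gm41225 to 4930474H20Rik. Positions inside another annotated feature had 81.3% ± 1.67 (SD, n = 3) in the controls, those within 20 kb of one 86.5% ± 1.78 and those farther away 86.9% ± 2.64. The first class covers 11 stretches. It includes most of Gm40856 to Gm4101 and all of Gm29946 to Gm29998, with control means of 70.0% and 71.1%. Whether lying inside a feature goes with lower levels apart from them was not tested. By chromosome the mean over libraries ran from 73.5% (chromosome 11, 11 positions) to 90.9% (chromosome 14).

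**Figure D2:**
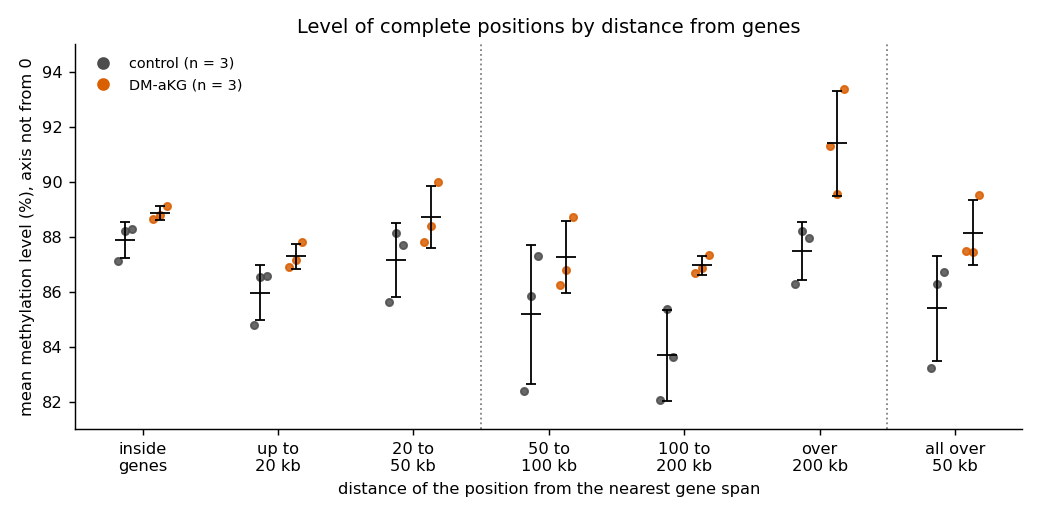
Per-library mean level (vertical axis, %, drawn from above 0) of complete positions by class of distance from genes (horizontal axis). Each point is a library, and black bars show group mean ± SD (n = 3). Beyond the first dotted line, treated points are all higher than control points from 100 to 200 kb, over 200 kb and over all far positions, and the groups overlap from 50 to 100 kb.

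Single positions spanned most of the range that the table allows. Their mean over the 6 libraries ran from 45.7% to 100%, with a median of 90.3% and quartiles of 79.8% and 95.8%. The other positions had a median of 92.5% and quartiles of 82.7% and 96.7%. A mean under 80% was found for 25.2% of far and 20.9% of other positions, and 10 far positions (2.80%) stood at 100% in every library, against 3.33% of the others. The median SD between replicates of a position was 5.77 points in the controls and 4.58 with DM-aKG, against 4.58 and 4.04 at the other positions. Pairs of libraries correlated at 0.567 to 0.772 across the far positions and at 0.573 to 0.742 across the others.

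The comparison of the groups asks how methylation differs between DM-aKG and control organoids. The control libraries averaged 85.4% ± 1.91 (SD, n = 3) at far positions, and the treated libraries averaged 88.1% ± 1.18, which is 2.74 points more. All 3 treated libraries were above all 3 controls, and the two-sided exact permutation test gave p = 0.1, the smallest that 3 against 3 allows, so 0.05 could not be reached. The other positions had 87.5% ± 0.730 and 88.6% ± 0.281, a difference of 1.05 points (exact permutation p = 0.1). The difference of far positions was 1.69 points larger than that of the others. The per-library gap had a mean of -2.12 ± 1.18 (SD, n = 3) among controls and -0.425 ± 0.921 among treated libraries (exact two-sided permutation p = 0.1, again the smallest possible). Without control replicate 1 the difference at far positions was 1.65 points (exact permutation p = 0.2, groups still apart) and the gap difference 1.02 (p = 0.3 by the same exact test). With each library averaged over every far row it has a value at, the difference was 1.30 points (exact permutation p = 0.4) and the gap difference 0.881 (exact permutation p = 0.5). With every 0 taken as a true level, far positions differed by -1.86 points (exact permutation p = 0.3) and the gap by -1.33 (exact permutation p = 0.4).

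Distance classes and chromosomes all had positive differences. They divide the same far positions and the same libraries, so this adds no independent support to the total. The difference was 2.07 points from 50 to 100 kb, where the groups overlapped (exact permutation p = 0.4), 3.27 from 100 to 200 kb and 3.91 over 200 kb, where they did not (exact permutation p = 0.1, adjusted 0.15 over the 3 classes). No test compared the distance classes with each other. The difference was positive on 11 of 11 chromosomes, from 0.275 points on chromosome 12 to 12.5 on chromosome 18, which had 2 positions. The groups were apart on 5 of them (1, 10, 14, 18 and 19). Chromosomes were not counted in this way for the other positions, whose groups were also apart as a whole. In the 48 positions over 50 kb from every annotated feature the groups had 85.1% ± 2.75 and 89.2% ± 0.778 (SD, n = 3), a difference of 4.13 points.

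The level classes were compared next. Of the far positions 11.2%, 6.72% and 7.00% were under 60% in control replicates 1 to 3, and 5.60%, 5.88% and 2.80% in DM-aKG replicates 1 to 3. The DM-aKG shares all lay below the control shares (exact two-sided permutation p = 0.1). At the other positions the shares under 60% were 6.31% ± 1.71 and 4.84% ± 0.347 (SD, n = 3), with overlapping groups (exact permutation p = 0.2). Levels under 40% cannot be in this class. At exactly 100% were 19.0%, 16.8% and 22.1% in the controls and 25.8%, 21.3% and 31.9% with DM-aKG, and here the groups overlapped (exact permutation p = 0.2). At the other positions the shares at 100% were 24.0% ± 2.95 and 25.7% ± 1.94 (SD, n = 3).

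**Figure D3:**
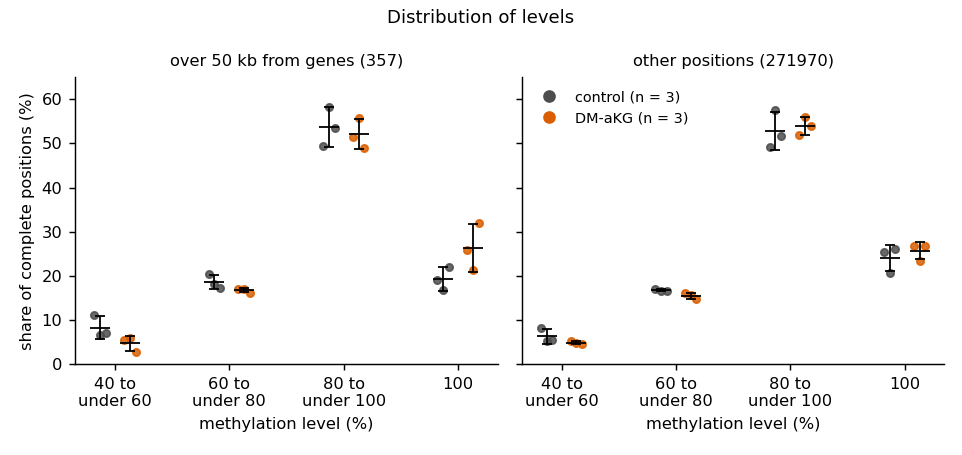
Share of complete positions (%, vertical axis) in 4 classes of methylation level (horizontal axis) for far positions (left) and the others (right); points are libraries and black bars show group mean ± SD (n = 3). Far positions under 60% are fewer in each DM-aKG library (2.80% to 5.88%) than in each control (6.72% to 11.2%). For the others under 60% the groups overlap.

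Stretches were then tested together with all other regions of the chromosomes, using limma on the mean level of each region with at least 3 positions. None of the 24 far stretches passed an adjusted p of 0.05 (smallest 0.718), and 1 of all 11426 regions (0.00875%) did. At an unadjusted p under 0.05 there were 5 stretches higher with DM-aKG and 0 lower, against 5.59% and 0.919% of all regions. The groups did not overlap in 5 stretches, all higher with DM-aKG (20.8% of the 24, against 11.6% of all regions higher and 2.16% lower). The difference was positive in 22 of 24 stretches with a median of 2.34 points, and in 67.9% of all regions with a median of 0.878. A stretch's difference had a 95% interval with a median half-width of 4.62 points. With single libraries left out, 1 to 3 stretches were higher at an unadjusted p under 0.05, and 1 was lower without control replicate 2 or without control replicate 3. There were 3 higher without control replicate 1 and 1 without DM-aKG replicate 3, and with library means equalised 1 was. Shares over all regions were not counted for these other fits. Control replicate 1 was the lowest of the 6 libraries in 17 of the 24 stretches and DM-aKG replicate 3 the highest in 15.

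Among the 6 stretches with most positions, Gm35023 to Lyplal1 showed the largest difference. Its 43 positions averaged 78.9%, 84.6% and 85.5% in the controls and 87.8%, 86.9% and 89.7% in the treated libraries, 5.10 points higher (limma unadjusted p = 0.0423, adjusted 0.718). The groups did not overlap, and control replicate 1 was lowest. Of these positions 29 were higher and 11 lower with DM-aKG, and 3 were equal. Without this stretch the far positions differed by 2.42 points. Without control replicate 1 its difference was 3.04 points, and that of Gm41225 to 4930474H20Rik was 1.25 in place of 3.57.

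Gm9750 to Scgb2a2 averaged 88.7%, 88.8% and 90.0% in the controls and 92.0%, 91.0% and 95.5% with DM-aKG. Its difference of 3.69 points (limma unadjusted p = 0.0428, adjusted 0.718) came with 22 of 33 positions higher and 8 lower, and was 2.37 points without DM-aKG replicate 3. Fhit to Ptprg on chromosome 14, between the tumour suppressor gene Fhit and a receptor phosphatase gene, had 17 positions from 11263392 to 11286132. They averaged 87.8%, 88.9% and 89.2%, and 92.7%, 91.2% and 90.8%, a difference of 2.92 points (limma unadjusted p = 0.0341, adjusted 0.718). Both stretches had all treated libraries above all controls. For Fhit to Ptprg this follows from the choice, since it was named for groups apart and a small p.

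Crybg1 to Gm40637 on chromosome 10, with 6 positions in the pseudogene Speer5-ps1, had 80.7%, 86.0% and 85.5%, and 88.0%, 89.8% and 89.0%. The difference was 4.89 points (limma unadjusted p = 0.0265, adjusted 0.718). Glycam1 to Mucl2 had 88.2%, 91.8% and 91.0% in the controls and 92.5%, 92.1% and 92.2% with DM-aKG, 1.93 points higher (limma unadjusted p = 0.176). In both stretches the groups were apart, and Crybg1 to Gm40637 was named for that and its small p. Without control replicate 1 the differences were 3.19 and 0.872 points.

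The least methylated large stretch differed in the other direction. Gm40856 to Gm4101 averaged 71.2%, 66.3% and 72.6% in the controls and 62.9%, 66.4% and 68.7% in the treated libraries, for a difference of -4.02 points (limma unadjusted p = 0.119, adjusted 0.718). The groups overlapped, the difference was -2.46 without DM-aKG replicate 1, and 17 of its 19 positions had a mean under 80%. The other stretch with a negative difference, among the 24, was Gm29946 to Gm29998 on chromosome 19, with 8 positions inside Rnls. Rnls is the renalase gene, which this annotation lists as a transcribed pseudogene. It had 73.9%, 71.8% and 67.8%, and 65.9%, 67.5% and 70.4%, a difference of -3.21 points with overlapping groups. These were also the lowest 2 of the 24 means.

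Other stretches with low levels were Atp10b to Pttg1 on chromosome 11, whose 10 positions from 43361894 to 43367267 lie 7130 to 12503 bases from the microRNA gene Mir146. It had 63.7%, 71.8% and 72.8% in the controls and 70.0%, 74.2% and 82.3% with DM-aKG, with overlapping groups and a difference of 6.07 points (95% half-width 9.21). Leaving out DM-aKG replicate 3 gave 2.67 points, and leaving out control replicate 1 gave 3.20. Ralyl to Slc7a12 on chromosome 3 (14 positions) and Ano6 to Gm38469 on chromosome 15 (15 positions) averaged 81.5% and 82.4% over the libraries. Their differences were 1.81 and 2.20 points, and 0.738 and 0.389 without control replicate 1, and their groups overlapped.

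High means among stretches of 10 or more positions were 91.7% at Vmn2r7 to Kcnab1, 91.3% at Glycam1 to Mucl2 and 91.3% at Gm41225 to 4930474H20Rik. Vmn2r7 encodes a vomeronasal receptor. Gm30608 to Tnfsf11 had 84.6%, 92.8% and 91.3%, and 91.9%, 92.2% and 94.2%, with control replicate 1 apart from the other 5 libraries. Vmn2r7 to Kcnab1 differed by 0.424 points, less than the spread between its replicates, and by -0.0909 without DM-aKG replicate 3.

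The 6 positions within Igh, at 114506495 to 114506626 on chromosome 12, had the largest difference among the 24 stretches. They averaged 77.7%, 71.7% and 71.8% in the controls and 84.8%, 75.0% and 88.8% with DM-aKG, 9.17 points higher (limma unadjusted p = 0.0487, adjusted 0.718). The groups overlapped, and the 95% half-width was 9.10 points. Igh is the locus that B cells rearrange to make antibody heavy chains. The other 9 stretches held 1 or 2 positions each, 13 in all. In a limma fit that kept every region with at least 1 position (13293 regions), 0 of the 33 stretches and 1 of all regions passed an adjusted p of 0.05. At an unadjusted p under 0.05, 4 stretches were higher and 0 lower, and the difference was positive in 27. Shares over all regions were not counted for this fit. In the fit with at least 3 positions, 5.59% of all regions were higher and 0.919% lower at that p, and 67.9% had a positive difference.

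**Figure D4:**
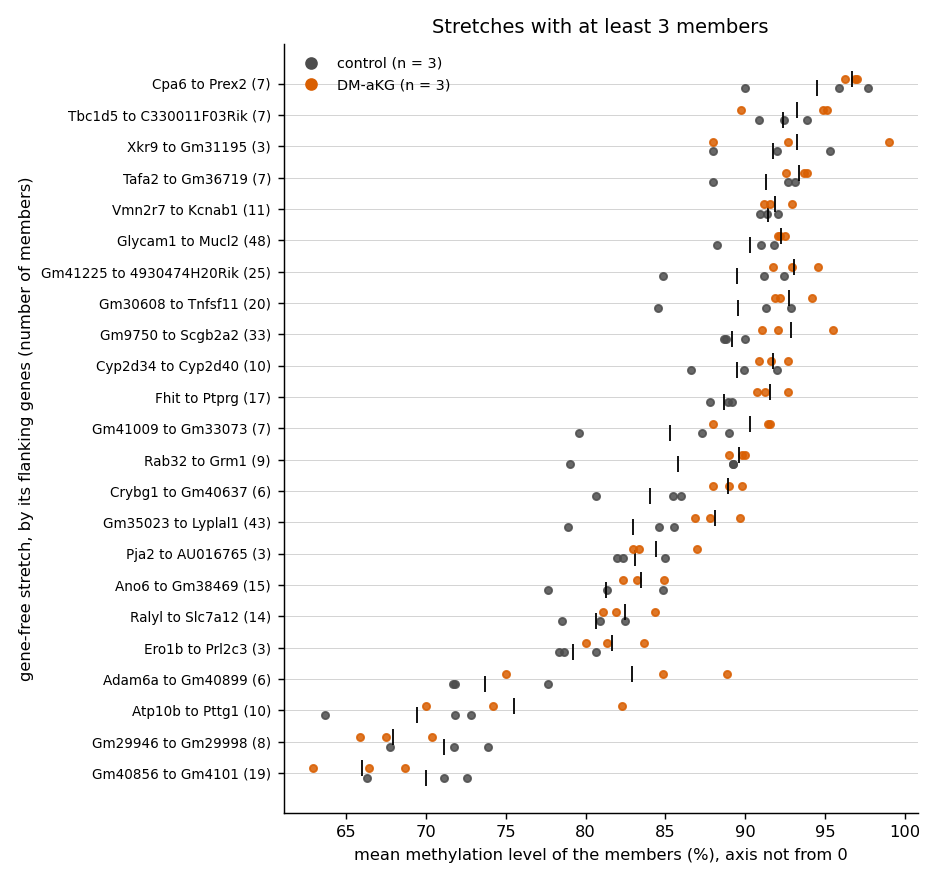
Mean methylation level (%, horizontal axis, not starting at 0) of the far positions in 23 stretches with at least 3 of them (vertical axis, named by flanking genes, with the number of positions); points are libraries and black ticks are group means (n = 3). The groups are apart in 5 stretches, all higher with DM-aKG, and the lowest 2 stretches have negative differences.

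No single far position passed the adjusted threshold. Of 200 simulated positions lowered by 40 points this fit called 62, and of those lowered by 10 points 0. How often it finds raised positions, or changes in the measured levels, was not tested. By limma on untransformed levels over all 272327 positions, 0 of the 357 and 0 of all positions (0%) had an adjusted p under 0.05, and on log2 odds 1 far position and 407 in all did. At an unadjusted p under 0.05, 13 far positions (3.64%) were higher and 5 (1.40%) lower with DM-aKG, against 3.54% and 1.89% of all positions. With library means equalised, 8 were higher and 5 lower. The counts turned on single libraries: leaving out DM-aKG replicate 3 gave 5 higher and 8 lower, leaving out replicate 1 of that group gave 7 and 7, and leaving out its replicate 2 gave 13 and 11. Leaving out control replicate 1 gave 16 and 6, leaving out control replicate 2 gave 21 and 5, and leaving out control replicate 3 gave 20 and 4. Shares over all positions were not counted for the fits with means equalised or with a library left out. The groups did not overlap at 17 higher and 4 lower far positions (4.76% and 1.12%), against 4.63% and 2.50%. These shares are near those of all positions. The difference was positive at 222 far positions (62.2%, against 53.3% of all), negative at 114 and 0 at 21.

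The position with the smallest p lay in Tafa2 to Gm36719 on chromosome 10 at 124514212, inside the pseudogene 4930503E24Rik and 483219 bases from the nearest gene. It was at 100% in all 3 controls and at 88%, 90% and 83% with DM-aKG (limma unadjusted p = 0.00155, adjusted 0.654). This was the position that passed on log2 odds (limma adjusted p = 0.0407). Log2 odds were not the main fit because an earlier fit on them called more unchanged than changed positions in simulated data. The control values here had no spread, and whether that produced the call was not tested.

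Other positions were higher with DM-aKG. At 44206060 on chromosome 10, in Speer5-ps1, the values were 84%, 86% and 92% in the controls and 95%, 95% and 100% with DM-aKG (limma adjusted p = 0.839). At 185715113 on chromosome 1, in Gm35023 to Lyplal1, they were 46%, 50% and 59%, and 65%, 62% and 72% (limma adjusted p = 0.848). Both were picked for groups apart and a small p, so every treated library above every control follows from the choice.

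In the other direction, a position in Gm40856 to Gm4101 at 22156226 had 86%, 75% and 73% in the controls and 50%, 67% and 47% with DM-aKG (limma adjusted p = 0.833). In Glycam1 to Mucl2, 103767418 had 93%, 92% and 100%, and 84%, 90% and 83% (limma adjusted p = 0.863), and 103805790 had 100%, 97% and 100%, and 69%, 87% and 89% (limma adjusted p = 0.868). That stretch as a whole was 1.93 points higher, with 30 of its 48 positions higher and 13 lower, so its positions differed in both directions.

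The 3 positions farthest from genes had mostly high levels. The farthest, 542983 bases away at 124454448 on chromosome 10, had 58%, 88% and 94% in the controls and 92%, 92% and 100% with DM-aKG, and without control replicate 1 its difference was 3.67 points in place of 14.7. The next, 536310 bases away at 48010106 on chromosome 3 in Pabpc4l to Gm46835, had 73%, 83% and 90%, and 95%, 84% and 89%. The third, 528897 bases away at 124468534 on chromosome 10, had 97%, 92% and 94%, and 100%, 99% and 98%. Just inside the limit, 50416 and 50417 bases from Mucl2, positions 103845439 and 103845438 on chromosome 15 averaged 92.7% and 95.3% in the controls and 95.3% and 94.3% with DM-aKG. Just outside it, 49694 and 49691 bases from a gene in Cyp2c66 to Cyp2c29 on chromosome 19, position 39236450 averaged 97.3% in the controls and 95.7% with DM-aKG. Position 39236447 there averaged 60.3% and 58.7%.

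Far rows were less often complete than others, and fewer of them had a value with DM-aKG. Of the 592 far rows 60.3% had a value in all 6 libraries, against 69.8% of the others. The share with a value was 84.5%, 83.4% and 84.8% in the controls and 80.4%, 80.6% and 81.2% in the treated libraries (p = 0.1 by exact permutation, groups apart). In the other rows it was 86.7% ± 2.62 and 85.7% ± 0.431 (SD, n = 3), with overlapping groups. Of the far rows, 118 (19.9%) had a value in more controls than treated libraries and 81 (13.7%) in fewer, against 13.4% and 12.5% of the other rows. Since a 0 may be a low level or no call, the mean of complete positions and this share cannot be told apart as sides of 1 change.

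Some stretches had many rows without a value. Tbc1d5 to C330011F03Rik on chromosome 17 had 39 rows, with values at 30, 30 and 22 of them in the controls and at 30, 13 and 18 with DM-aKG. Gm40856 to Gm4101 had 77 rows, with 57, 46 and 58, and 43, 57 and 44. Gm9750 to Scgb2a2 had 44, with 38, 40 and 43, and 34, 34 and 41. In none of the 11 stretches with at least 20 rows were the groups apart. With every 0 taken as a true level the difference of Gm9750 to Scgb2a2 was -6.36 points.

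**Figure D5:**
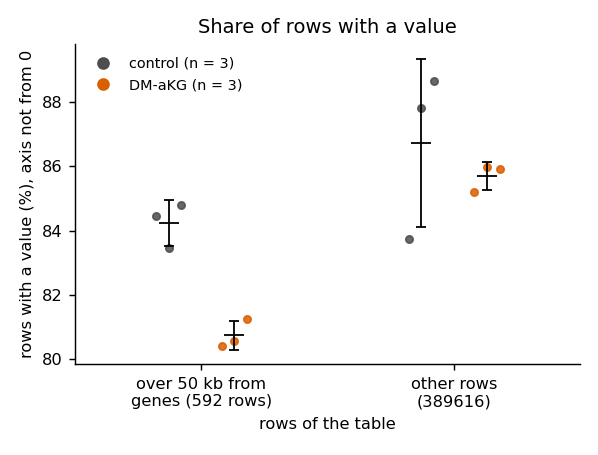
Share of table rows with a value (%, vertical axis, not starting at 0) in each library for rows over 50 kb from genes and for all other rows (horizontal axis); points are libraries and black bars show group mean ± SD (n = 3). In far rows the DM-aKG libraries (80.4% to 81.2%) lie below the controls (83.4% to 84.8%), and in the other rows the groups overlap.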

How the data were processed

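Per the file headers, the deposited table gives chromosome, start, end and 6 columns named after the samples. The authors' values are a percent of methylation per position, in whole numbers. The submitters' processing notes name the mm10 build and list CASAVA 1.8 and Novoalign 3.08.02, without saying what each did; the step that called methylation is unnamed. No coverage is given, so no coverage minimum or read-count interval was possible. Of 813850 rows, 390208 (47.9%) were used. Distances were taken to 34610 protein-coding or lncRNA gene spans (RefSeq, GRCm38.p6). Each chromosome was divided into merged gene spans, flanks up to 50 kb and stretches farther out. Per-library means were compared by exact permutation over the 20 assignments of 3 of 6 libraries, or by sign flips. Positions, and regions of at least 3 positions, were fitted with limma 3.58.1 (R 4.3.3) on untransformed percent with Benjamini-Hochberg adjustment, and log2 odds were an alternative. The fits were tested on simulated data with 200 positions or regions lowered by 10, 20 or 40 points. At an adjusted p under 0.05 the position fit called 0, 6 and 62 of them, and the region fit 104, 173 and 198. The members, lists and tests were chosen with earlier results of these data known. Named by rule were the 6 stretches with most members, the 4 highest and 4 lowest of at least 10 members, up to 5 stretches and 4 positions per direction with groups apart and the smallest p, the 3 farthest positions and the 2 on each side of the limit. Of these, 1 stretch and its positions are counted in all totals but not reported one by one here. Gm29946 to Gm29998, the stretch in Igh and Tbc1d5 to C330011F03Rik were named after their values were seen. Tables were made with Python 3.11.15 and pandas 2.3.3.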

Additional observations from a re-analysis of the deposited data

How the results depend on the processing

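Counting each 0 as a level of 0 reversed the sign of the differences between DM-aKG and control. They were -1.86 points at far positions (exact permutation p = 0.3), -0.529 at the others (exact permutation p = 0.8) and -1.33 for their gap (exact permutation p = 0.4). The gap over the 6 libraries was then -4.85 (exact permutation p = 0.03125). This counting also reversed the stretches Gm9750 to Scgb2a2 (-6.36), Gm41225 to 4930474H20Rik (-1.32), Ralyl to Slc7a12 (-6.77) and Ano6 to Gm38469 (-0.783). With distance to protein-coding genes only (6751 positions) the gap over libraries was -2.07 (exact permutation p = 0.03125) and the difference at far positions stayed positive. Averaging each library over every position it has a value at gave 1.30 points at far positions (exact permutation p = 0.4). The gap over libraries was smaller over 25 kb from genes (-0.683, exact permutation p = 0.125), over 100 kb (-0.540, p = 0.4375 by the same test), with adjacent positions averaged (-0.952, p = 0.15625) over region means (-0.997, p = 0.125) and over 50 kb from every annotated feature (-0.854, p = 0.40625). For the difference at far positions, over 25 kb and over 100 kb from genes gave 2.06 and 3.61, and with adjacent positions averaged it was 3.12. Over 50 kb from every annotated feature, an alternative chosen after seeing the data, it was 4.13. With single replicates left out it ranged from 1.65 to 3.39 points, the gap difference from 1.02 to 2.12 and the gap over libraries from -1.65 to -0.832. Log2 odds called 1 far position and untransformed levels 0. With single replicates left out, the difference of Vmn2r7 to Kcnab1 ranged from -0.0909 to 0.773, that of position 103845438 on chromosome 15 from -2.83 to 0.167, that of 39236450 on chromosome 19 from -3.83 to 1.17 and that of 39236447 from -7.33 to 1.17, with 0.667 without control replicate 2. The cause of these changes was not tested. The labels do not say whether equal replicate numbers mark paired samples. Deviations of same-numbered libraries correlated at 0.0189, -0.0086 and 0.0149 over all positions, and at -0.0456, 0.0153 and -0.0576 over the far ones. With 3 libraries per group these values cannot settle whether samples shared a batch. With the number as a block, the difference at far positions was 2.74 points (exact sign-flip permutation p = 0.25, the smallest that 3 pairs allow), that of the others 1.05 and that of the gap 1.69, and limma with the replicate block called 0 far positions and 0 far stretches. The number of libraries and the unknown depth limit the precision.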

Other observations

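In the later rows of the table, levels of rows 1 base apart on the autosomes correlated at 0.688 in control replicate 1 and 0.716 in control replicate 2, against 0.684 and 0.736 in the rows used. In the other 4 libraries the later rows gave 0.447 to 0.483. Control replicates 1 and 2 correlated with each other at 0.668 in the later rows. In both of them, 419 positions over 50 kb from genes had a value, with means of 84.4% and 86.8%, against 86.2% and 87.1% at the 222838 others. Both libraries were lower at the far positions, by less in replicate 2. These rows hold no comparison with DM-aKG.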
